A study of Mus musculus with 72 samples.

Results

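Semaphorins are secreted or membrane-bound guidance proteins, and plexins are the receptors that carry their signals into the cell. The gene family was followed through mouse early secondary ovarian follicles that were cultured for 24 h with or without follicle-stimulating hormone (FSH), the pituitary hormone that acts on granulosa cells. The members were chosen by symbol: semaphorins of classes 3 to 7, plexins A to D, the plexin domain containing receptors Plxdc1 and Plxdc2, and the neuropilins Nrp1 and Nrp2. This gave 33 of the 56691 gene entries of the deposited table, namely 20 semaphorins, 9 plexins, 2 PLXDC receptors and 2 neuropilins. Of these, 32 passed the filter on low counts; the exception was Plxnb3, with 2 to 11 counts per library.

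The design had 6 groups of 3 libraries of polyadenylated RNA, each library sequenced on 4 lanes. FSH21, a hypoglycosylated FSH, and FSH24, its fully glycosylated counterpart, were each given at 1 or 10 ng/ml. Libraries carry a number: the groups at 1 ng/ml and one untreated group have the numbers 1, 5 and 6, and the groups at 10 ng/ml and the other untreated group have 2, 3 and 4. Each FSH group was compared with the untreated libraries of its own numbers, so in treated follicles the dose and the number set cannot be told apart. No strain, age or genotype is given in the labels used here. The libraries are described as biological replicates with no animal or culture named, so p-values measure only the spread between these libraries, which may be technical.

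Semaphorin binding opens the plexin receptor, whose cytoplasmic part acts on small GTPases and so on the actin cytoskeleton and on adhesion. Most class 3 semaphorins are secreted and need a neuropilin as co-receptor, whereas most members of classes 4 to 7 are held at the membrane and bind plexins directly. The family is best known from axon guidance and from vessel growth, and its members also act in epithelia, where neighbouring cells signal to each other through them. In a follicle the sender and the receiver can be the oocyte, the granulosa cells or the thin layer of cells outside them.

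Totals per library ran from 17.5 to 22.5 M counts (M, mega), with a median of 21.4 M. Levels are CPM, counts scaled to a common adjusted library total, and gene differences are log2 fold changes from edgeR's quasi-likelihood test with their standard errors (SE). A gene was called at a p-value under 0.05 after Benjamini-Hochberg adjustment over the 18727 genes tested. Counts of genes at an unadjusted p under 0.05 are descriptive. The share of all genes at that unadjusted threshold was not counted, so they cannot be set against it. Oocyte and granulosa markers were abundant in every library, with Gdf9 at 960 CPM or more and Inha at 2290 CPM or more. In bulk RNA, fewer cells of a type and less RNA per cell cannot be told apart.

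In follicles cultured without FSH the receptors Plxnb2, Plxnc1, Plxna1 and Plxdc2 led the family by level per exon length. Levels of different genes were compared per kilobase (kb) of annotated exon, over the 6 untreated libraries. The length takes all annotated exons of a gene together, not the transcripts expressed, and the order depends on it. By mean CPM alone Sema5a, at 541, stood above Plxna1 at 464 and Plxdc2 at 306. Plxnb2, a receptor of class 4 semaphorins, stood at 97.5 ± 5.85 CPM per kb and Plxnc1, the receptor of Sema7a, at 89.3 ± 8.27 CPM per kb (SD, n = 6). The ranges of these 2 genes overlapped, and both lay above Plxna1, a class 3 and class 6 receptor, at 51.3 ± 4.41 CPM per kb. Plxdc2, a membrane protein with a plexin-like domain that is known as a receptor of pigment epithelium-derived factor, overlapped Plxna1 at 44.1 ± 2.47 CPM per kb.

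Among the ligands, 5 semaphorins of different kinds formed one upper tier. Sema7a, a semaphorin held by a lipid anchor, was at 29.5 ± 5.89 CPM per kb and Sema5a, a transmembrane semaphorin with thrombospondin repeats, at 28.9 ± 3.75. Sema4b, a transmembrane class 4 ligand, was at 25.9 ± 1.11, the secreted Sema3g at 25.6 ± 3.93 and the secreted Sema3c at 24.2 ± 1.95 CPM per kb. Each of these overlapped its neighbour in the order, and the lowest of them did not overlap the next gene, Plxnb1, at 10.6 ± 1.15 CPM per kb. The neuropilins stood far lower, with Nrp2 at 5.45 ± 0.63 and Nrp1 at 2.27 ± 0.369 CPM per kb. The lower end of the order held Sema3f, Sema3a and Sema4f, between 0.162 and 0.341 CPM per kb on average, and Plxnb3 at 0.0343.

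**Figure D1:**
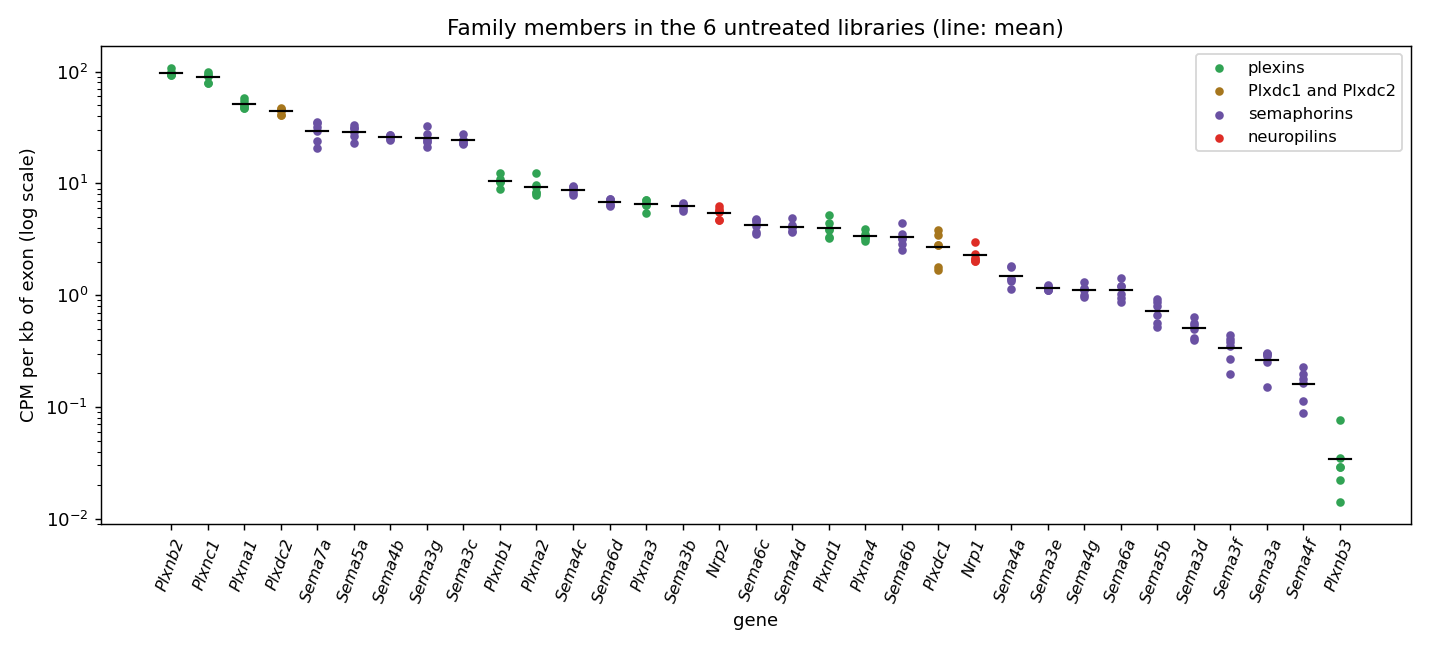
CPM per kb of annotated exon (log scale) of the 33 family members in the 6 untreated libraries, 1 point per library, with a line at the mean. Plxnb2 and Plxnc1 lie highest, at means of 97.5 and 89.3, and Plxnb3 lowest, at 0.0343.

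The untreated groups did not differ for the family by the test used. None of the 32 members was called between the untreated libraries 2, 3 and 4 and the untreated libraries 1, 5 and 6, where 0% of all genes tested were called. An unadjusted p under 0.05 was found for 5 members, with the share of all genes at that threshold not counted, and DESeq2 called 0. All 5 were lower in libraries 2, 3 and 4 than in 1, 5 and 6, among them Sema6a by −0.43 (SE 0.13) and Sema5a by −0.21 (SE 0.10) on the log2 scale.

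At 10 ng/ml both hormone forms came with a rearranged set of semaphorin transcripts. With FSH21, 7 of 32 members rose, where 5.96% of all genes tested were called higher, and 5 fell, where 4.21% of all genes were called lower. With FSH24, 6 members rose and 3 fell, against 5.12% and 3.3% of all genes. The median size of the log2 change was 0.31 over the members with either form and 0.17 over all genes. Both comparisons used the same 3 untreated libraries. Of the members called, 4 semaphorins changed by at least 2-fold with both forms: Sema3g and Sema6b downward, Sema4a and Sema5b upward. How many of all genes tested did so was not counted.

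Sema3g, a secreted ligand that signals through Nrp2 and A plexins, fell furthest. The untreated libraries held 125, 95.8 and 114 CPM, those with FSH21 25.1, 24.7 and 23.3 CPM, and those with FSH24 21.9, 27.4 and 18 CPM. The treated libraries lay far below every untreated one, and the libraries of the 2 forms overlapped. The change was −2.20 (SE 0.19, adjusted p = 5.74e-06) with FSH21, which leaves a fraction of 0.218, and −2.31 (SE 0.19, adjusted p = 5.66e-06) with FSH24, which leaves 0.201. Each call held in 11 of 11 alternative settings, which included leaving out each of the 6 libraries of its comparison in turn.

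Sema6b, a transmembrane ligand of A plexins (chromosome 17, 56123085 to 56140343, minus strand, GRCm38), was the other strong fall. The untreated libraries held 17.4, 10.1 and 12.7 CPM, those with FSH21 3.57, 5.55 and 7.09 CPM, and those with FSH24 5.42, 7.78 and 4.28 CPM. No treated library reached the lowest untreated one. The change was −1.30 (SE 0.26, adjusted p = 0.00272) with FSH21 and −1.20 (SE 0.25, adjusted p = 0.00589) with FSH24, and both calls held in 11 of 11 alternatives. The gene was scarce, with 64 to 373 counts per library.

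Sema5b, a transmembrane semaphorin with thrombospondin repeats (chromosome 16, 35541145 to 35664732, plus strand), rose most. The untreated libraries held 4.68, 6.1 and 6.51 CPM, those with FSH21 14.6, 14.1 and 11.7 CPM, and those with FSH24 15.9, 10.6 and 17.7 CPM. All 6 treated libraries lay above the 3 untreated ones. The change was 1.22 (SE 0.23, adjusted p = 0.00137) with FSH21 and 1.35 (SE 0.23, adjusted p = 0.000808) with FSH24, and both held in 11 of 11 alternatives. Its close relative Sema5a fell with both forms.

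Sema4a, a transmembrane ligand known from immune cells and from the retina (chromosome 3, 88435959 to 88461182, minus strand), rose to more than 2 times its untreated level. The untreated libraries held 9.83, 7.2 and 7.55 CPM, those with FSH21 22.3, 13.9 and 17.2 CPM, and those with FSH24 21.9, 13.6 and 17.7 CPM. All treated libraries lay above the untreated ones, and the 2 forms overlapped. Without FSH and with either form, library 2 was the highest and library 3 the lowest. The change was 1.12 (SE 0.25, adjusted p = 0.00759) with FSH21 and 1.11 (SE 0.25, adjusted p = 0.00965) with FSH24. The FSH21 call was lost without FSH21 library 2 (adjusted p = 0.0512, the highest over its alternatives). The FSH24 call was lost without FSH24 library 2, untreated library 3 or untreated library 4, with an adjusted p of up to 0.0617.

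**Figure D2:**
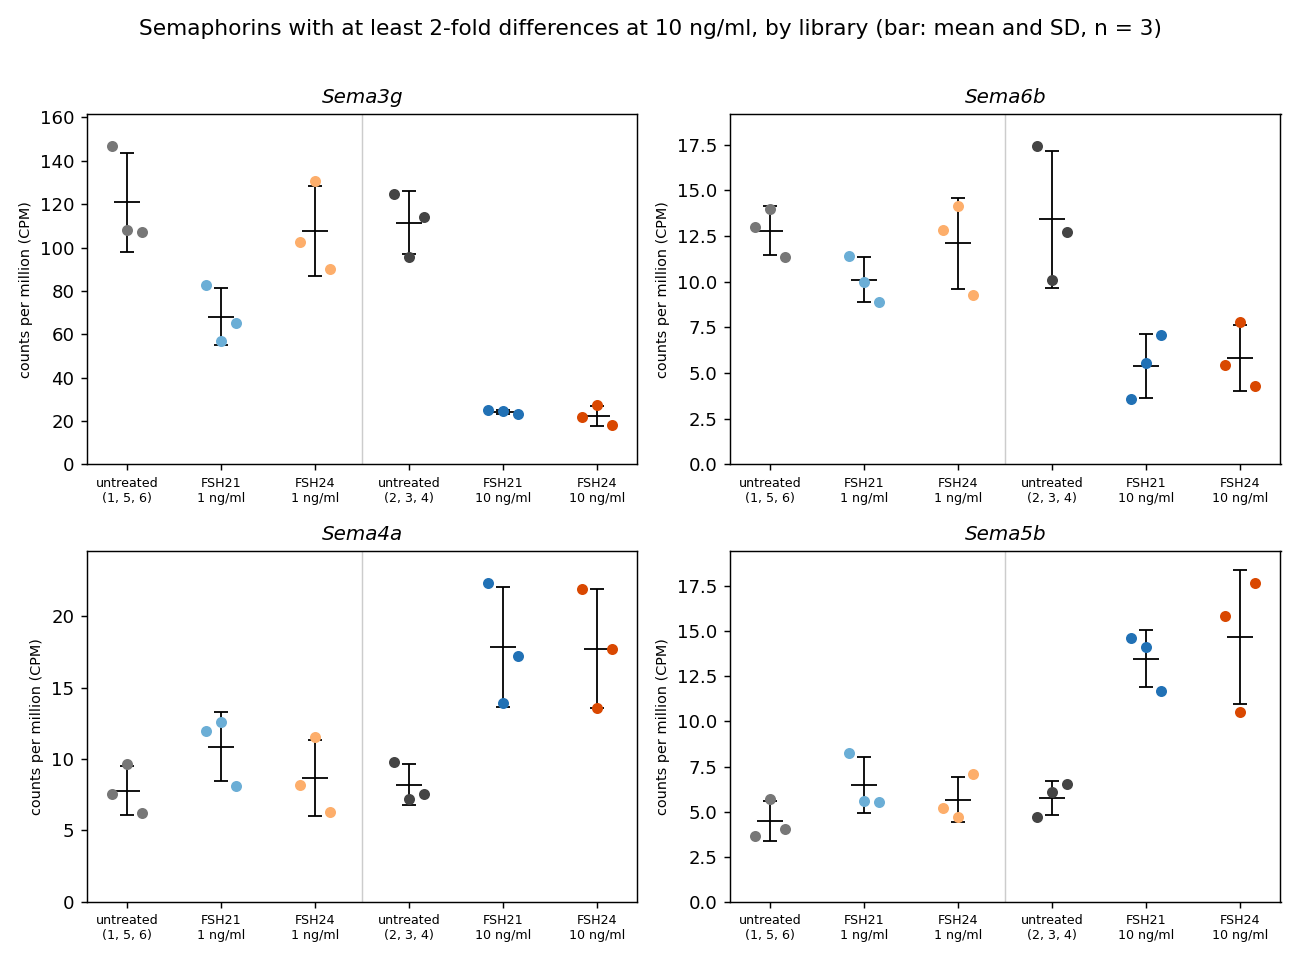
CPM of Sema3g, Sema6b, Sema4a and Sema5b in the 18 libraries (points) with the mean and SD of each group of 3. At 10 ng/ml Sema3g lies at 18 to 27.4 CPM against 95.8 to 125 in the untreated libraries of the same numbers, and Sema5b at 10.6 to 17.7 against 4.68 to 6.51.

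The stretches before the start sites of Sema3g, Sema6b and Sema4a are shown because these genes changed at least 2-fold with both forms. They come from RefSeq on GRCm38.p6, are cut where an annotated exon begins and read 5′ to 3′ on the gene's strand, with matches to the searched motifs in capitals. For Sema5b most of the stretch lies in annotated exon, and none is printed.
Sema3g, chr14:31217623-31217859, plus strand: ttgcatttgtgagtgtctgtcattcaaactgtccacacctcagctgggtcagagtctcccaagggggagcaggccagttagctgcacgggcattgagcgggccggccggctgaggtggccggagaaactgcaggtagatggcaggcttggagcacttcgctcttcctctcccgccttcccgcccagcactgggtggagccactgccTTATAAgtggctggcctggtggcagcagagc
Sema6b, chr17:56140344-56140593, minus strand: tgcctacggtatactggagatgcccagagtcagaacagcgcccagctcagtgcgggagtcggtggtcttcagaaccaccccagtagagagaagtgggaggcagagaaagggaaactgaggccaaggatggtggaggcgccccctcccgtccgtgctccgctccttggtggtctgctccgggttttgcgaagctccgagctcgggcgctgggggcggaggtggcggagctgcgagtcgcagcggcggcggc
Sema4a, chr3:88461183-88461432, minus strand: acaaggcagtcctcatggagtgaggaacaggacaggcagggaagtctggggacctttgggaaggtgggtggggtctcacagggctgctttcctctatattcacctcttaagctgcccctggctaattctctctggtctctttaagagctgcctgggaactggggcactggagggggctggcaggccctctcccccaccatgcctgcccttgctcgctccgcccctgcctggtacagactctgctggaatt
The capitals in Sema3g mark TATAA, the core of the TATA box, found on both strands of 1 overlapping site 43 to 44 bases before the RefSeq start. This motif was added after the sequences had been seen. It occurs within 250 bases before the start in 22.8% of all 32851 RefSeq windows and in 3 of the 37 windows of the 26 members that have one.

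Motifs of factors known from granulosa cells were searched on both strands in the same 250 bases. TGACG, one side of the cAMP response element, was in 17.8% of all windows and in 1 of 37 member windows (Sema3d). AAGGTCA, the core bound by NR5A receptors, was in 4.08% of all windows and in 3 member windows, those of Nrp1, Sema4b and Sema5a. GTAAACA, a core bound by FOXO factors, was in 3.17% of all windows and in 0 member windows. The site of Sema4b is shown because that gene rose with both forms, with the core in capitals.
Sema4b, chr7:80186620-80186653, plus strand: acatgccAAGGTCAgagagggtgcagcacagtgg
The core starts 243 bases before the RefSeq start of Sema4b. In Sema5a, which fell with both forms, it starts 140 bases before the start, and its surroundings overlap annotated exon and are not printed. A match is a description of letters, not of binding.

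Secreted class 3 transcripts changed in makeup. Sema3c, which uses both neuropilins and is known from heart outflow development, rose while Sema3g fell. The untreated libraries held 164, 176 and 165 CPM of Sema3c, those with FSH21 207, 255 and 204 CPM, and those with FSH24 213, 247 and 237 CPM. The treated libraries all lay above the untreated ones. The change was 0.40 (SE 0.09, adjusted p = 0.00645) with FSH21 and 0.46 (SE 0.09, adjusted p = 0.00269) with FSH24. Without FSH21 library 3 the FSH21 call was lost (adjusted p = 0.0538, the highest over its 11 alternatives), and the FSH24 call held in all 11.

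Expressed as shares of the summed class 3 signal per kb, Sema3g made up 43.3 ± 3.82% and Sema3c 41.8 ± 3.44% in the untreated libraries 2, 3 and 4 (SD, n = 3). At 10 ng/ml Sema3g was at 11.5 ± 0.977% with FSH21 and 10.4 ± 1.72% with FSH24, and Sema3c at 66.2 ± 2.04% and 68.9 ± 1.90%. The sum itself went from 56.6 ± 2.56 CPM per kb without FSH to 46.9 ± 4.50 with FSH21 and 47.2 ± 3.72 with FSH24. Shares of one sum are not independent of each other, and they were not tested.

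**Figure D3:**
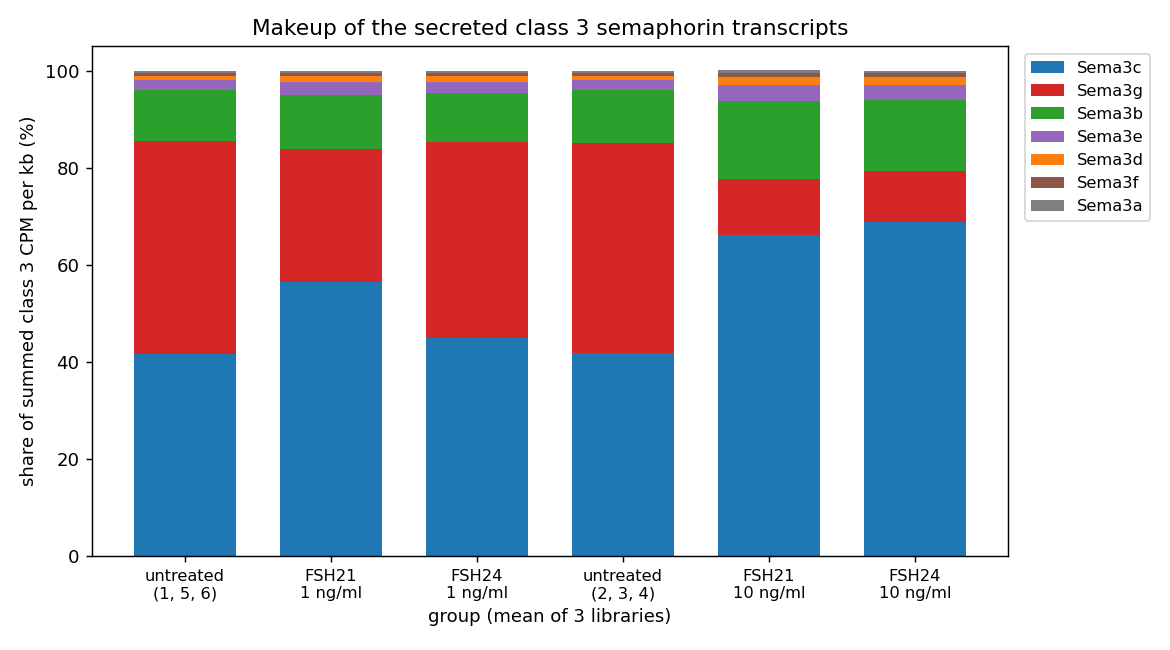
Mean share (%) of each class 3 semaphorin in the summed class 3 CPM per kb, for the 6 groups of 3 libraries. Sema3g and Sema3c take similar shares without FSH (43.3% and 41.8% in the untreated libraries 2, 3 and 4), and Sema3c takes 66.2% with FSH21 and 68.9% with FSH24 at 10 ng/ml.

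The other class 3 genes were scarcer and were not called by the main test. Sema3b, a neuropilin ligand, ranged from 28.4 to 31.1 CPM without FSH, from 35.2 to 36.1 CPM with FSH21 and from 31 to 35.3 CPM with FSH24. Its libraries did not overlap between the untreated group and FSH21, and the change was 0.26 (SE 0.11, adjusted p = 0.152). Sema3e, which binds Plxnd1 without a neuropilin, differed by 0.48 (SE 0.15, adjusted p = 0.0523) with FSH21 and by 0.31 (SE 0.15, adjusted p = 0.275) with FSH24. Sema3d gave 0.72 (SE 0.28) and 0.69 (SE 0.28), while Sema3a and Sema3f stayed below 5 CPM in every library, and none of these passed the test. With FSH21, Sema3e was called in 4 of 11 alternative settings, Sema3d in 2 of 11 and Sema3b in 1 of 11. With FSH24, Sema3d was called in 1 of 11.

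Class 4 genes, the membrane-bound ligands of B plexins, moved in one direction where they were called. With FSH21 4 of the 6 genes were called higher (Sema4a, Sema4b, Sema4c and Sema4g), where 5.96% of all genes tested were. With FSH24 2 were called higher (Sema4a and Sema4b), against 5.12% of all genes. No member was called between the 2 forms at this dose. Sema4b held 150, 140 and 146 CPM without FSH, 179, 183 and 174 CPM with FSH21, and 187, 164 and 199 CPM with FSH24, with no overlap between untreated and treated libraries. Its change was 0.30 (SE 0.07, adjusted p = 0.0131) with FSH21 and 0.34 (SE 0.07, adjusted p = 0.00703) with FSH24. The FSH21 call was lost without FSH21 library 2 or 3 or untreated library 3 or 4 (adjusted p up to 0.0821), and the FSH24 call without FSH24 library 4 or untreated library 3 (up to 0.0708).

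Sema4c, a Plxnb2 ligand, held 40.4, 42.5 and 37.6 CPM without FSH, 46.5, 57.6 and 47.8 CPM with FSH21, and 51.2, 53.2 and 47.8 CPM with FSH24. All treated libraries lay above the untreated ones, yet the changes sat at the threshold: 0.33 (SE 0.10, adjusted p = 0.0490) with FSH21 and 0.34 (SE 0.10, adjusted p = 0.0537) with FSH24. The FSH21 call was lost without any 1 of the 6 libraries compared, with an adjusted p of up to 0.283, and also with DESeq2's size factors. The FSH24 change was called with the low-count filter off, with the library number as a block, with only the groups compared and with DESeq2. On the opposite strand the gene D430040D24Rik covers 7.27% of Sema4c's exon length and held 37 to 91 counts per library, and without stated strand use reads of the shared stretch cannot be told apart.

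Sema4g, also a Plxnb2 ligand, held 10.01, 9.95 and 11.5 CPM without FSH, 14.7, 21.3 and 22 CPM with FSH21, and 13.1, 18 and 13.7 CPM with FSH24. Again no treated library fell into the untreated range. The change was 0.89 (SE 0.26, adjusted p = 0.0414) with FSH21 and 0.51 (SE 0.26, adjusted p = 0.294) with FSH24. The FSH21 call was lost without untreated library 2, 3 or 4 or FSH21 library 3 or 4 and with the low-count filter off, with an adjusted p of up to 0.147. Sema4d, the classical ligand of Plxnb1, differed by −0.06 (SE 0.12) with FSH21 and −0.04 (SE 0.12) with FSH24.

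Among classes 5 to 7, Sema5a, the most abundant of them by CPM, fell modestly. The untreated libraries held 427, 581 and 494 CPM, those with FSH21 351, 362 and 371 CPM, and those with FSH24 358, 391 and 444 CPM. FSH21 libraries lay below all untreated ones, whereas one FSH24 library lay within the untreated range. The change was −0.47 (SE 0.10, adjusted p = 0.00312) with FSH21, called in 11 of 11 alternatives, and −0.33 (SE 0.10, adjusted p = 0.0363) with FSH24. The FSH24 call was lost without FSH24 library 2 or 3 or untreated library 3 or 4, and with only the 2 groups compared (adjusted p up to 0.160). Sema7a, the Plxnc1 ligand, ranged from 79.6 to 115 CPM without FSH and from 108 to 135 CPM with FSH at this dose, and differed by 0.27 (SE 0.22) with FSH21 and 0.32 (SE 0.22) with FSH24, which did not pass the test. Sema6a, Sema6c and Sema6d were not called with either form.

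The summed signal of all 20 semaphorins was 170 ± 4.98 CPM per kb in the untreated libraries 2, 3 and 4, 168 ± 5.01 with FSH21 and 173 ± 4.31 with FSH24 at 10 ng/ml (SD, n = 3), and the 3 ranges overlapped. Within it Sema4b was at 15.1 ± 0.183% without FSH and 18.8 ± 0.0709% with FSH21, and Sema5a at 15.8 ± 2.87% and 11.5 ± 0.588%.

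Of the receptors, Plxnb1, which binds Sema4d, rose with both forms (chromosome 9, 109095389 to 109119917, plus strand). It held 86.4, 105 and 98.2 CPM without FSH, 118, 134 and 124 CPM with FSH21, and 116, 137 and 153 CPM with FSH24. Every treated library was above every untreated one. The change was 0.38 (SE 0.10, adjusted p = 0.0159) with FSH21 and 0.49 (SE 0.10, adjusted p = 0.00307) with FSH24. The FSH21 call was lost without FSH21 library 3 or untreated library 2 or 4 (adjusted p up to 0.0948), and the FSH24 call held in 11 of 11 alternatives. An antisense gene, Gm7628, covers 2.68% of its exon length and held 6 to 28 counts per library.

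Plxna1 held 425, 449.6 and 454 CPM without FSH, 509, 504 and 508 CPM with FSH21, and 509.5, 509 and 563 CPM with FSH24. The treated libraries lay above the untreated ones by a small margin. The change of 0.25 (SE 0.07, adjusted p = 0.0324) with FSH24 was called and that of 0.20 (SE 0.07, adjusted p = 0.0941) with FSH21 was not. The FSH24 call was lost without FSH24 library 2 or 4, without untreated library 2, 3 or 4, and with only the 2 groups compared (adjusted p up to 0.196). The antisense gene Gm26811 covers 10.7% of Plxna1's exon length and held 9 to 52 counts per library.

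The most abundant plexins were not called. Plxnb2 held 735, 721 and 723 CPM without FSH, 774, 814 and 756 CPM with FSH21, and 767, 824 and 819 CPM with FSH24. The treated libraries lay above the untreated ones and the 2 forms overlapped, and its changes of 0.11 (SE 0.06, adjusted p = 0.316) and 0.15 (SE 0.06, adjusted p = 0.151) were small. Plxnc1 differed by 0.04 (SE 0.11) with FSH21 and 0.11 (SE 0.11) with FSH24, with overlapping groups. Plxna2, Plxna3, Plxna4 and Plxnd1 were not called either, with log2 differences between −0.32 (Plxna2 with FSH24) and 0.18 (Plxna4 with FSH24). The summed plexin signal was 264 ± 12.5 CPM per kb without FSH, 283 ± 15 with FSH21 and 293 ± 19.2 with FSH24, with overlapping ranges.

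The co-receptor Nrp2, which binds Sema3f, Sema3g and the vessel growth factor VEGF-C, fell with FSH21 (chromosome 1, 62703285 to 62818695, plus strand). It held 56, 65.6 and 69.5 CPM without FSH, 54.2, 41.4 and 46.1 CPM with FSH21, and 48.1, 47.8 and 61.4 CPM with FSH24. The FSH21 libraries lay just below the untreated ones, and the FSH24 libraries overlapped them. The change was −0.43 (SE 0.12, adjusted p = 0.0272) with FSH21 and −0.28 (SE 0.12, adjusted p = 0.182) with FSH24. The FSH21 call was lost without FSH21 library 3 or 4 or untreated library 3 or 4, with an adjusted p of up to 0.118. Nrp1, the co-receptor of Sema3a, differed by −0.24 (SE 0.16, adjusted p = 0.448) and −0.06 (SE 0.16, adjusted p = 0.898).

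Plxdc2 held 287, 313 and 285 CPM without FSH, 229, 247 and 223 CPM with FSH21, and 256, 258 and 253 CPM with FSH24. Both treated groups lay below the untreated one. The change was −0.34 (SE 0.07, adjusted p = 0.00440) with FSH21, called in 11 of 11 alternatives, and −0.20 (SE 0.07, adjusted p = 0.0958) with FSH24. Its relative Plxdc1 ranged from 8.7 to 18.4 CPM without FSH and from 14.3 to 32.4 CPM with FSH21, with overlap. Plxdc1 differed by 0.68 (SE 0.38, adjusted p = 0.329).

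**Figure D4:**
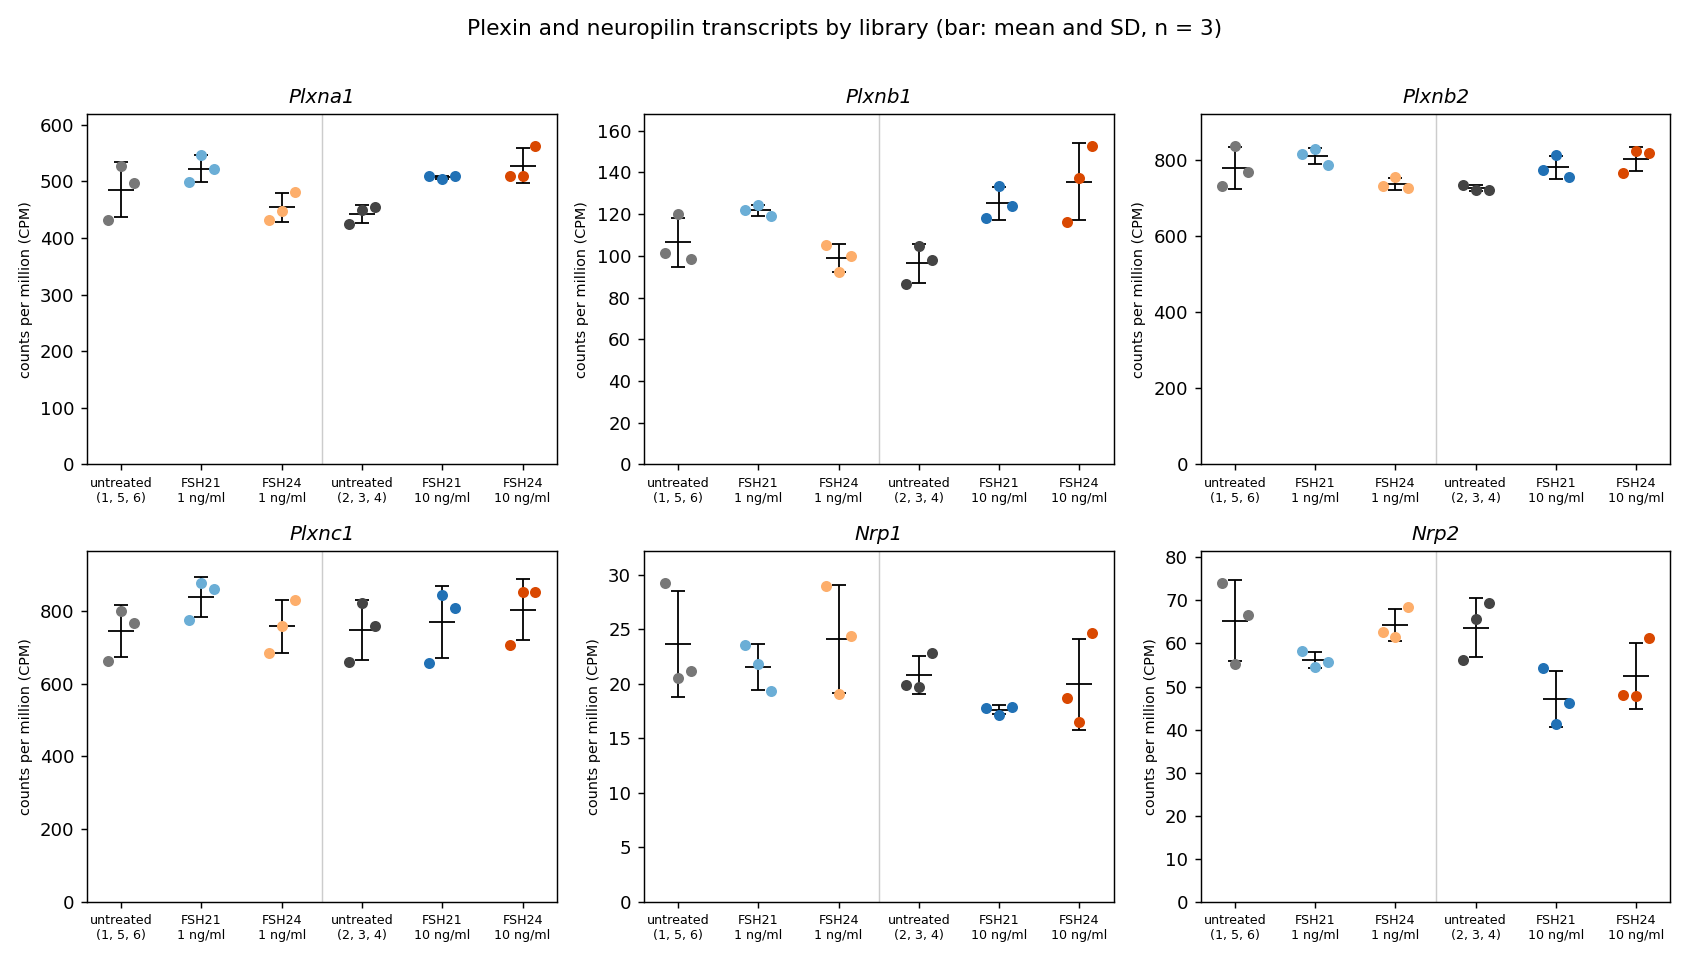
CPM of 4 plexins and the 2 neuropilins in the 18 libraries (points) with the mean and SD of each group of 3. Plxnb1 lies at 116 to 153 CPM at 10 ng/ml against 86.4 to 105 in the untreated libraries of the same numbers, and Nrp2 with FSH21 at 41.4 to 54.2 against 56 to 69.5.

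With the library number as a block, the FSH21 comparison at 10 ng/ml called 18 of 32 members, 13 higher and 5 lower. Over all genes tested the block raised the calls as well, from 1906 to 2819 of 18727. It kept the 12 calls and added Plxdc1 (0.66, SE 0.12), Plxna1 (0.20, SE 0.06), Sema3b (0.26, SE 0.08), Sema3d (0.73, SE 0.19), Sema3e (0.48, SE 0.12) and Sema7a (0.28, SE 0.06). All 6 added genes were higher with FSH21. Without the block, leaving out single libraries lowered the count to between 6 (without FSH21 library 3) and 9, with 7 without untreated library 4. For FSH24 the count went from 9 to between 5 (without untreated library 3) and 8. Over all genes the calls fell too when 1 library was left out, from 1906 to between 1250 and 1630 for FSH21 and from 1577 to between 982 and 1439 for FSH24.

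**Figure D5:**
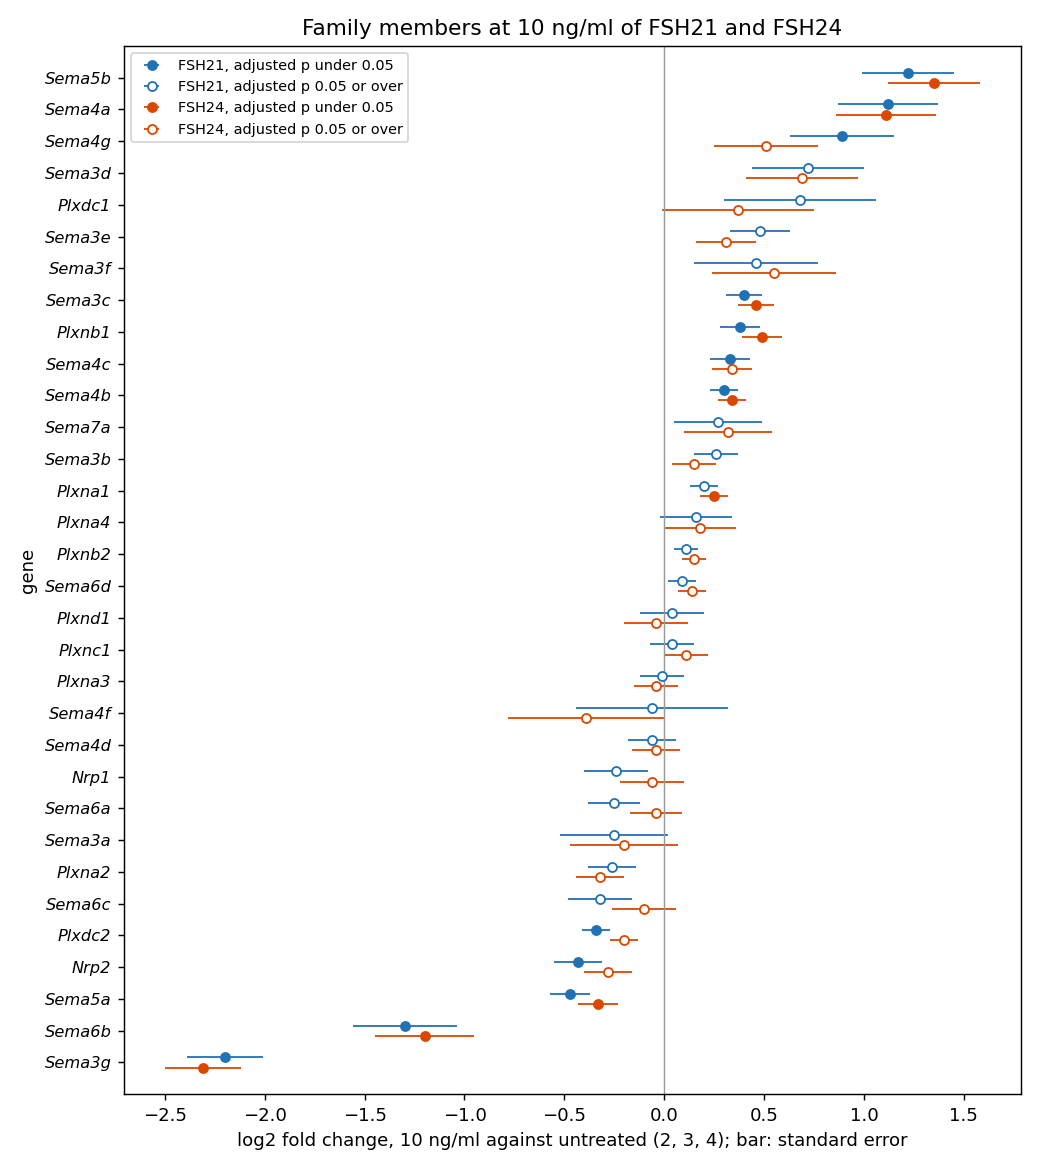
Log2 fold change with its SE of the 32 tested members at 10 ng/ml of FSH21 (blue) and FSH24 (orange) against the same 3 untreated libraries, filled where the adjusted p was under 0.05. Sema3g lies lowest (−2.20 and −2.31) and Sema5b highest (1.22 and 1.35), and the 2 forms lie close to each other for most genes.

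Some markers of other cell types moved at this dose too, and their part in the family's changes was not tested. The summed level of 5 theca and steroidogenic genes lay between 10.8 and 12.6 CPM in untreated libraries 2, 3 and 4. It was between 31.1 and 35.7 CPM with FSH21 and between 19.9 and 39.4 CPM with FSH24. With each form 2 of 5 were called higher (Cyp17a1 and Star). Untreated libraries 1, 5 and 6 summed to between 11 and 28.5 CPM, which overlaps the FSH24 range. The sum of 5 surface epithelium genes was between 36.6 and 49.6 CPM in untreated libraries 2, 3 and 4. It was between 80.1 and 80.8 CPM with FSH21 and between 73.3 and 83.7 CPM with FSH24. Most of it was Krt8, the 1 called of the 4 tested, at means of 36.8 CPM untreated, 72 with FSH21 and 69.2 with FSH24. The median log2 change of the 4 was 0.5 with FSH21 and 0.14 with FSH24. The median sizes were 0.88 and 0.56, so not all 4 rose. Markers of endothelium, a cell type known to express Sema3g and both neuropilins, summed to between 65.9 and 101 CPM without FSH, between 64.1 and 84.4 CPM with FSH21 and between 69.4 and 82.8 CPM with FSH24. None of the 5 endothelial genes tested was called by edgeR, and 0 had an unadjusted p under 0.05 with either form. Over all 18 libraries Cdh5 ran from 36.8 to 75.8 CPM, Pecam1 from 9.46 to 15.5, Tek from 6.25 to 9.88, Emcn from 1.19 to 3.78, Esam from 0.239 to 1.33 and Tie1 from 0 to 0.376 CPM. Of 6 stroma and smooth muscle genes 0 were called, with 1 at an unadjusted p under 0.05 with FSH21 and 0 with FSH24. The summed level of 7 oocyte genes was between 4290 and 4490 CPM in untreated libraries 2, 3 and 4. It was between 3740 and 4220 CPM with FSH21 and between 3770 and 4010 CPM with FSH24. For these 7 genes edgeR called 0, with 2 and 3 at an unadjusted p under 0.05. Untreated libraries 1, 5 and 6 summed to between 3510 and 4120 CPM. Between the 2 untreated groups edgeR called 0 of the 7, with 5 at an unadjusted p under 0.05. Of 6 granulosa genes 2 rose with each form, Kitl and Foxl2. Of the 2 immune genes tested 0 were called, with 1 at an unadjusted p under 0.05 for each form, and the red blood cell genes summed to at most 0.825 CPM in any library.

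The proteins that work with plexins were followed in 3 lists. Of 17 tested genes for other co-receptors and shared ligands, 0 were called by edgeR with either form at 10 ng/ml, with 3 at an unadjusted p under 0.05 with FSH21 and 1 with FSH24. Over all genes tested 10.2% were called in either direction with FSH21 and 8.42% with FSH24. Of 20 GTPases and regulators, 2 rose and 1 fell with each form, which is 15% of the list and near those shares, and the median size of the log2 change was 0.12 with FSH21 and 0.08 with FSH24, below the 0.17 of all genes. Rnd2, a small GTP-binding protein without GTPase activity, rose by 0.91 (SE 0.15) with FSH21 and 0.89 (SE 0.15) with FSH24. Arhgap35, a GTPase-activating protein, rose by 0.33 (SE 0.07) and 0.32 (SE 0.07), and Mras, a Ras relative, fell by 0.74 (SE 0.08) and 0.63 (SE 0.08) on the log2 scale.

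Of 25 cytoplasmic effectors, 3 rose and 2 fell with FSH21, and 3 rose and 1 fell with FSH24, or 20% and 16% of the list against 10.2% and 8.42% of all genes. The median size of the log2 change in the list was 0.16 and 0.11, below the 0.17 of all genes. Those that rose with both forms were the kinase Rock2 (0.24 and 0.30), the kinase Gsk3b (0.28 and 0.26) and Mical2 (0.27 and 0.19), an enzyme that oxidises actin. Dpysl5, a collapsin response mediator protein, fell by 0.84 (SE 0.11) and 0.92 (SE 0.11), and Mical1 fell with FSH21 by 0.33 (SE 0.09).

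At 1 ng/ml no member was called with either form. With FSH21, where 0.0908% of all genes were called higher and 0.0374% lower, edgeR called 0 of 32 members, 6 had an unadjusted p under 0.05, and DESeq2 called 1, Sema3g. Over all genes DESeq2 called 107 of 17986 in that comparison. With FSH24, where 0% were called in either direction, edgeR called 0, 0 had an unadjusted p under 0.05, and DESeq2 called 0. The 3 plexin partner lists had 0 calls by edgeR at this dose with either form, with 8 genes at an unadjusted p under 0.05 with FSH21 and 4 with FSH24. How many of all genes had an unadjusted p under 0.05 at this dose was not counted.

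Sema3g with FSH21 came nearest to the threshold. Untreated libraries held 147, 108 and 107 CPM, those with FSH21 82.6, 56.9 and 65.1 CPM, and those with FSH24 102, 130.6 and 90.3 CPM. The FSH21 libraries lay below all untreated libraries, and the FSH24 libraries overlapped them. The difference was −0.82 (SE 0.18, adjusted p = 0.135) with FSH21 and −0.17 (SE 0.18, adjusted p = 0.912) with FSH24. Over the alternatives the adjusted p for FSH21 ran from 0.000853 to 0.473, and DESeq2's was the lowest.

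Other members with low unadjusted p at 1 ng/ml of FSH21 included Sema3c, with 160.1, 199 and 175 CPM without FSH and 203, 222 and 236 CPM with it. Its libraries did not overlap, and the difference was 0.31 (SE 0.09, adjusted p = 0.308). Sema5b gave 0.54 (SE 0.23, adjusted p = 0.627), Sema4b 0.16 (SE 0.07, adjusted p = 0.655), Sema6a −0.37 (SE 0.13, adjusted p = 0.467) and Plxnd1 −0.36 (SE 0.15, adjusted p = 0.614).

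The 2 hormone forms were compared with each other at each dose. At 10 ng/ml edgeR called 0 of 32 members, where 0% of all genes were called, 0 had an unadjusted p under 0.05, and DESeq2 called 0. The 95% intervals of the FSH21 minus FSH24 difference were −0.30 to 0.54 for Sema3g, −0.65 to 0.46 for Sema6b, −0.58 to 0.33 for Sema5b and −0.51 to 0.52 for Sema4a on the log2 scale. They were tighter for abundant genes, −0.19 to 0.12 for Sema4b and −0.31 to 0.09 for Plxnb1. The data leave differences within these bounds possible, and the result does not show that the forms act alike.

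At 1 ng/ml edgeR called 0 members between the forms, where 0.0107% of all genes were called. An unadjusted p under 0.05 was found for 6 members, with the share of all genes at that threshold not counted, and DESeq2 called 1, Sema3g. Over all genes DESeq2 called 213 of 10959 here. Sema3g was lower with FSH21 than with FSH24 by −0.66 (SE 0.18, 95% interval −1.05 to −0.27, adjusted p = 0.237), and over the alternatives its adjusted p ran from 0.0141 to 0.682. The other 5 were higher with FSH21: Plxnb1 by 0.30 (SE 0.10), Sema4b by 0.23 (SE 0.07), Sema3c by 0.23 (SE 0.09), Plxna1 by 0.20 (SE 0.07) and Plxnb2 by 0.13 (SE 0.06), none of which passed the adjusted test.

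Whether a form acted differently at the 2 doses was tested as an interaction, in which dose and number set cannot be told apart. For FSH21, where 0.272% of all genes were called, 1 member passed: Sema3g fell more at 10 than at 1 ng/ml, by −1.37 (SE 0.26, adjusted p = 0.0435). That call held in 5 of 17 alternatives, with an adjusted p of up to 0.151, and was lost without FSH21 library 1 or 6 at 1 ng/ml, FSH21 library 2, 3 or 4 at 10 ng/ml, or untreated library 2, 3, 4, 5 or 6. With the low-count filter off it was lost too, and with the library number as a block its adjusted p was 0.0566. For FSH24, where 2.45% of all genes were called, 3 members passed.

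Sema3g differed between the FSH24 doses by −2.15 (SE 0.26, adjusted p = 0.000882), which held in 17 of 17 alternatives. Plxnb1 differed by 0.59 (SE 0.14, adjusted p = 0.0260), with 105, 92.1 and 99.8 CPM at 1 ng/ml and 116, 137 and 153 CPM at 10 ng/ml. Its call held in 10 of 17 alternatives (adjusted p up to 0.0962) and was lost without untreated library 2, 4 or 5, without FSH24 library 4, 5 or 6, and with only the groups compared. Sema4b differed by 0.40 (SE 0.11, adjusted p = 0.0494), with 149.7, 133 and 138 CPM at 1 ng/ml and 187, 164 and 199 CPM at 10 ng/ml, and its call held in 4 of 17 alternatives (adjusted p up to 0.189). It was lost without any 1 of the 12 libraries compared except FSH24 library 3.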

How the data were processed

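The deposited table holds expected counts per gene, 1 column per library with the lanes merged; the column names point to RSEM, and per the submitters' processing notes the tools were STAR 2.7, FastQC and bcl2fastq, with build mm10. The RSEM version, the annotation and the strand setting are not given in the sources used here. Estimated counts that were not whole made up 33.9% of those above 0; all were rounded. Genes were filtered with edgeR's filterByExpr (minimum count 10), and 18727 were tested with edgeR 4.0.16 (R 4.3.3) on all 18 libraries in 6 groups with TMM scaling and robust quasi-likelihood fits. The biological coefficient of variation was 0.135. The script was tested on simulated data. Positions and exon lengths are from GENCODE M21 (GRCm38), which held all 33 identifiers; promoters are from RefSeq. The untreated library numbered 4 is coded differently in the table and in its titles, and was matched by number and index.

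Members, marker lists and partner lists were chosen with earlier results of these data known, and no list was tested as a set. Values are named library by library for members called in any treatment, form or dose comparison and for the most abundant member of each subfamily; other members are given by ranges and counts. Alternatives were DESeq2's size factors, DESeq2 1.42.0 itself, no filter, the library number as a replicate block, only the groups compared, and leaving out each library. Deviations of same-numbered libraries from their group means correlated at 0.19, 0.21 and 0.13 between untreated and FSH21 libraries at 10 ng/ml, above 0.1 in every pair, so the block is given beside that result; elsewhere at least 1 pair was lower in each comparison with untreated libraries.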

Additional observations from a re-analysis of the deposited data

Results flagged for a closer look

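The effect of FSH on 3 members differed between 1 and 10 ng/ml by a test of the difference itself (edgeR, adjusted p under 0.05). Of all genes tested, 0.272% were called for FSH21 and 2.45% for FSH24. Sema3g differed by −1.37 (SE 0.26) for FSH21 and by −2.15 (SE 0.26) for FSH24 on the log2 scale, with the lower value at 10 ng/ml in both. For FSH24, Sema4b differed by 0.40 (SE 0.11) and Plxnb1 by 0.59 (SE 0.14), with the higher value at 10 ng/ml. The Sema3g call held in 5 of 17 alternatives for FSH21 and in 17 of 17 for FSH24. That of Plxnb1 held in 10 of 17 and that of Sema4b in 4 of 17. Dose and the set of library numbers cannot be told apart in these tests.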

How the results depend on the processing

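No call of a named member changed direction in any alternative, and the calls kept in every one were those of Sema3g, Sema5b and Sema6b with both forms, Plxdc2 and Sema5a with FSH21, and Plxnb1 and Sema3c with FSH24 at 10 ng/ml, and of Sema3g for the FSH24 dose difference. The number of members called moved more. With FSH21 at 10 ng/ml it was 12 and ran from 6 to 9 with 1 library left out. With FSH24 it was 9 and ran from 5 to 8. DESeq2 called 13 members with FSH21 and 11 with FSH24 at this dose. With only the groups compared 15 and 8 were called, and without the low-count filter 12 and 10. Over all genes DESeq2 called 2321 and 1950 of 17986. With only the groups compared, 1737 of 17353 and 1130 of 17293 genes were called, and without the filter 1648 and 1373 of 36282. For the dose difference the number of members was 1 for FSH21 and ran from 0 to 1, and 3 for FSH24 and ran from 1 to 5. DESeq2 called 1 member in place of 0 with FSH21 at 1 ng/ml, 1 in place of 0 between the forms at 1 ng/ml, and 6 in place of 3 for the FSH24 dose difference. Over all genes DESeq2 called more as well, 107 of 17986, 213 of 10959 and 839 of 13771 in these comparisons. The main test called 24, 2 and 458 of 18727. Without the filter on low counts the FSH21 dose difference had 0 members, and with only the groups compared the FSH24 one had 1. Over all genes these 2 settings called 102 of 36282 and 317 of 18220.

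With the replicate block, 3 members were called with FSH21 at 1 ng/ml (Sema3c, Sema4a and Sema7a). With FSH24 at 10 ng/ml 13 were called, the 9 of the main test and Plxna2, Sema3d, Sema4c and Sema7a. The block called 0 members for the FSH21 dose difference and 7 for the FSH24 one. Calls over all genes rose with the block in these comparisons, from 24 to 226, from 1577 to 2547, from 51 to 229 and from 458 to 1180. Deviations from group means were also compared with those of libraries in the other groups of the same number set. Within that set all 18 libraries correlated best with a library of their own number. The labels give each number to an untreated, an FSH21 and an FSH24 library but do not say what a number marks. The main test left the number out, so a pairing by number, if there is one, is not used in it. Same-number correlations ran from 0.05 to 0.23. The block could not be fitted between the untreated groups, which share no number. Leaving out a library leaves 2 in its group and fewer residual degrees of freedom. Scarce members such as Sema3a, Sema3f and Sema4f, are limited by depth.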
